A study of Caenorhabditis elegans with 21 samples.

Results

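The replication licensing genes of Caenorhabditis elegans were followed through 1-cell embryos, whole worms, sperm and small RNA libraries. They are mcm-2 (Y17G7B.5), mcm-3 (C25D7.6), mcm-4 (Y39G10AR.14), mcm-5 (R10E4.4), mcm-6 (ZK632.1), mcm-7 (F32D1.10), cdt-1 (Y54E10A.15) and cdc-6 (C43E11.10). They were chosen by gene name and are 8 of the 19119 named genes among the 21042 features of the mRNA table. All 8 had a value in each of the 15 mRNA libraries and passed the filter on low values described with the tests, so none is missing from what follows. No sequence of these genes was used here.

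Licensing is the step that prepares chromosomes for a single round of DNA replication. The origin recognition complex binds DNA and recruits the ATPase CDC-6 and its partner CDT-1, which together load the ring-shaped MCM helicase in an inactive form around the DNA. The helicase is a hexamer in which each of the 6 related proteins MCM-2 to MCM-7 appears as a separate subunit. Once S phase begins, kinases and the GINS complex turn the loaded rings into active helicases, and new loading is blocked, in part because CDT-1 is bound by geminin and degraded through the CUL-4 ubiquitin ligase. The zygote of C. elegans enters its first S phase soon after fertilization and, being largely silent in transcription, relies on RNA and protein supplied by the oocyte.

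The embryos came from a cross of mothers carrying fem-1(hc17ts) and the OMA-1::GFP reporter of strain TX189 with fathers of the Hawaiian strain CB4856, and 1-cell embryos were isolated by flow sorting. The allele fem-1(hc17ts) is temperature-sensitive and blocks sperm production in the mother, and OMA-1::GFP marks oocytes and 1-cell embryos. Embryo RNA was either selected for poly(A) tails (3 libraries) or depleted of rRNA with RiboMinus (3 libraries). Poly(A)-selected RNA of whole adult worms came from CB4856 (3 libraries) and from the fem-1(hc17ts)/TX189(OMA-1::GFP) strain (3 libraries), which is called the maternal strain here. The labels of the worm libraries give no sex. Poly(A)-selected sperm RNA came from CB4856 at low purity, from CB4856 at high purity after pronase treatment, and from fog-2(q71) males, with 1 library each. The 6 small RNA libraries, 1 each, came from fog-2(q71) sperm, hand-picked oocytes of wild-type N2, hybrid embryos of the cross above, embryos labelled TX189(OMA-1::GFP) alone, CB4856 worms and maternal-strain worms. The labels of the last one differ from each other: N2 stands in its title, whereas the maternal strain with fem-1(hc17ts) stands under strain, and the second label set its group. The labels give 24 °C for every library. No value by parental allele was used, so the levels below are sums over both parents' transcripts.

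The mRNA values are RPKM, read numbers scaled to transcript length and library size. Depth recovered from the steps of the RPKM values was 103.46 to 133.05 M reads in poly(A) embryo libraries, 4.49 to 13.71 M in RiboMinus embryo libraries and 31.48 to 155.09 M in worm libraries; it is unknown for sperm. Replicates 1 and 2 of a group differed little beyond read sampling (mean chi-square per feature 1.93 to 2.14, where 1 is expected of independent reads and 2 where both mates of a fragment are counted, against 37.3 to 1531 for replicates 1 and 3). They were averaged as 1 sample, so each mRNA group had n = 2 samples, the second being replicate 3. P-values therefore measure the spread between these samples, which the reported fit pooled over all 4 groups. In CB4856 and maternal-strain worms the median chi-square per feature was 1.1 and 1.12 for replicates 1 and 3, against 0.87 and 0.9 for replicates 1 and 2. In poly(A) and RiboMinus embryos it was 63.58 and 12.98 for replicates 1 and 3. P-values from worm samples alone thus measure a spread near that of read sampling for most features. Somatic markers summed to 6.38 to 20.4 RPKM in embryos, with 0 of 8 at 0 in all libraries of either embryo group, against 22970 to 26010 RPKM in worms. Sperm markers summed to at most 4.17 RPKM in embryos, with 5 of 9 at 0 in all RiboMinus libraries (msp-3, msp-50, ssp-10, spe-9 and spe-11). They summed to 15 to 16.1 RPKM in maternal-strain worms and 1941 to 1979 RPKM in CB4856 worms.

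In worms the MCM genes had far higher levels per length than cdc-6 and cdt-1, which encode the loaders. In maternal-strain worms mcm-7 had 356, 359 and 367 RPKM in replicates 1, 2 and 3, above 98.5% of named genes in each. The levels of mcm-2 there were 286, 281 and 283 RPKM, and those of mcm-4 were 227, 224 and 224 RPKM. Next came mcm-6 at 187 to 192 RPKM, mcm-3 at 139 to 143.4 RPKM and mcm-5 at 99.2 to 103.8 RPKM, an order without overlap between neighbours. The loaders cdc-6 and cdt-1 stood at 8.25 to 9.20 and 8.51 to 9.52 RPKM, and these ranges overlapped. All 3 replicates of a worm group lay close together for every gene, whereas in embryos replicate 3 departed from replicates 1 and 2 for most of them.

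**Figure D1:**
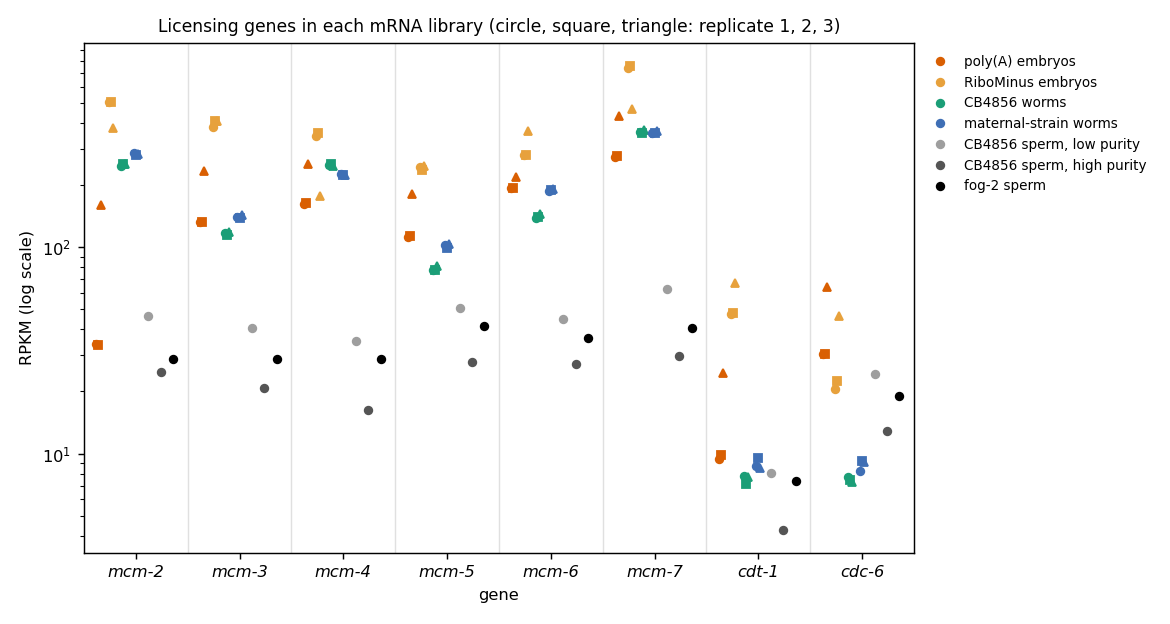
RPKM (log axis) of the 8 licensing genes in the 15 mRNA libraries; colours are groups and the symbols circle, square and triangle are replicates 1, 2 and 3. The worm replicates of a gene coincide, while mcm-2 in poly(A) embryos lies near 33 RPKM in replicates 1 and 2 and at 160.5 RPKM in replicate 3.

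The first comparison asked whether the strains of the father and the mother differ as whole worms. None of the 8 licensing genes was called different between CB4856 and maternal-strain worms. The helicase gene mcm-6 had 138, 140.4 and 144 RPKM in CB4856 worms against 187, 190.2 and 192 RPKM in maternal-strain worms, and mcm-5 had 77.7, 77.5 and 80.6 RPKM against 102.5, 99.2 and 103.8 RPKM. In both genes the groups did not overlap. The loader cdt-1 had 7.83, 7.16 and 7.71 RPKM against 8.71, 9.52 and 8.51 RPKM, and cdc-6 had 7.68, 7.45 and 7.32 RPKM against 8.25, 9.20 and 9.09 RPKM. These groups did not overlap either, nor did those of mcm-2, mcm-3 and mcm-4, whereas those of mcm-7 did. The share of all genes without overlap between the worm groups was not counted. As worm replicates lay close together, the lack of overlap cannot be read as particular to these genes.

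Differences were tested with limma on log2(RPKM + 1) over 11041 named genes, those with at least 1 RPKM in at least 3 of 12 libraries. A call required a two-sided p, adjusted by Benjamini and Hochberg's method, under 0.05 together with a log2 difference of 1 or more in size; differences on this scale understate those of genes with low RPKM. Of all genes tested, 14.9% were called in this comparison, 13.3% as higher and 1.62% as lower in CB4856 worms; the higher share of the called genes was 89.1%, and 61.5% after quantile normalization. The licensing genes ranged in log2 difference from −0.42 for mcm-6 (95% confidence interval −0.88 to 0.04, adjusted p = 0.19) to 0.15 for mcm-4 (−0.74 to 1.05, adjusted p = 0.866). Their median was −0.21 against 0.03 over all genes. The widest interval, −1.79 to 1.46, was that of mcm-2, from a spread shared with the embryo groups. At an unadjusted p under 0.05 the count was also 0, the smallest p being 0.0658 for mcm-6. In a fit of the 2 worm groups alone, with the same log2 differences, 7 of 8 genes passed on p but none on size. Standard errors of the 8 genes were 0.02 to 0.05 in that fit. Its share of all genes passing on p alone was not counted, so the 7 of 8 cannot be read as particular to these genes. The limma adjusted p there was 4.73e-05 for mcm-6, 0.000151 for mcm-5, 0.000218 for mcm-3, 0.000472 for mcm-2, 0.000646 for mcm-4, 0.00596 for cdc-6, 0.0181 for cdt-1 and 0.655 for mcm-7. Of the 7, mcm-4 was higher in CB4856 worms and the others were lower, by less than 2-fold. Sperm markers were higher in CB4856 worms for 9 of 9 genes (median log2 difference 6.02). The median was −0.38 over 8 oocyte and early embryo markers, with 0 positive. Over 8 markers of the mitotic and meiotic germline it was −0.37, with 2 positive, and over 8 somatic markers 0.25. The other lists of replication genes, described below, had medians from −0.52 to −0.19. The median of −0.21 thus cannot be read as particular to the licensing genes. Whether their levels move with the composition of the worms was not tested.

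The second comparison set the zygote against the body of its mother, both from poly(A)-selected RNA. The loader cdc-6 was higher in the embryo and the helicase subunit mcm-2 was lower, while the other 6 genes were not called. The levels of cdc-6 were 30.5, 30.4 and 64.1 RPKM in replicates 1, 2 and 3 of poly(A) embryos against 8.25, 9.20 and 9.09 RPKM in maternal-strain worms. Every embryo library lay above every worm library. The share of all genes without overlap in this comparison was not counted. Such separation, here or in the genes below, cannot be read as particular to the licensing genes. The group means were 47.3 ± 23.8 and 8.91 ± 0.259 RPKM (SD, n = 2), and the log2 difference was 2.19 (standard error 0.46, limma adjusted p = 0.00596), a 4.56-fold rise on the RPKM + 1 scale.

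The levels of mcm-2 were 33.9, 33.5 and 160.5 RPKM in poly(A) embryos against 286, 281 and 283 RPKM in maternal-strain worms. All 3 embryo libraries lay below the worms, but replicate 3 was 4.77 times the mean of replicates 1 and 2. The log2 difference was −1.92 (standard error 0.67, limma adjusted p = 0.0417). Without replicates 1 and 2 of the embryos it was −0.81, which is under the threshold on size. The adjusted p was 0.136 without replicate 3 of the maternal-strain worms, 0.137 without their replicates 1 and 2, 0.0615 with no filter on low values and 0.139 in a fit of these 2 groups alone.

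Of the other helicase genes, mcm-5 had 112, 113 and 182 RPKM in poly(A) embryos, all above the 99.2 to 103.8 RPKM of maternal-strain worms. Its log2 difference was 0.48 (−0.12 to 1.08, adjusted p = 0.132). For mcm-3 the embryos had 132, 132 and 234 RPKM, around the 139 to 143.4 RPKM of the worms (log2 difference 0.31, adjusted p = 0.365). The embryo libraries also lay on both sides of the worms for mcm-4 at 162, 164 and 254 RPKM and for mcm-7 at 274, 275 and 434 RPKM, with log2 differences of −0.14 and −0.07. All 3 embryo libraries were above the worms for mcm-6 at 194, 194 and 219.7 RPKM (log2 difference 0.12, −0.34 to 0.58). The second loader, cdt-1, had 9.43, 9.82 and 24.7 RPKM against 8.51 to 9.52 RPKM. Its log2 difference was 0.75 (−0.27 to 1.78, adjusted p = 0.161), and without replicates 1 and 2 of the embryos it was 1.39 and called (adjusted p = 0.00426).

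In this comparison 55.3% of all genes tested were called, 30.9% as higher and 24.4% as lower in poly(A) embryos, so 1 of 8 licensing genes called in each direction is no more than the share over all genes. The median of the 8 log2 differences was 0.21, against 0.05 over all genes. Germ cells make up only part of a worm, and in such bulk samples fewer cells of a type and less RNA per cell cannot be told apart. The somatic markers, which were lower in embryos for 8 of 8 genes with a median log2 difference of −9.75, moved with the comparison, and their part in the differences above was not tested.

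**Figure D2:**
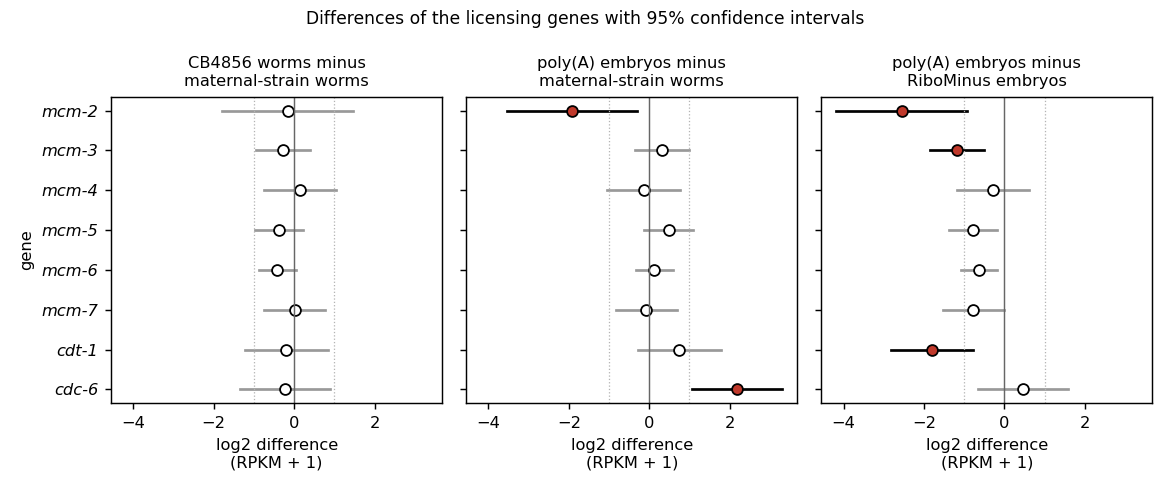
Log2 differences of the 8 genes on the log2(RPKM + 1) scale in the 3 comparisons, with 95% confidence intervals; filled points were called and dotted lines mark a 2-fold difference. No gene is filled between worms, mcm-2 and cdc-6 are filled between poly(A) embryos and maternal-strain worms, and mcm-2, mcm-3 and cdt-1 are filled between the embryo libraries.

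The balance between the 6 helicase genes differed from group to group, although their proteins act in one ring. The highest MCM gene exceeded the lowest 3.47 to 3.62 times in maternal-strain worms and 4.60 to 4.67 times in CB4856 worms, with mcm-7 highest and mcm-5 lowest in each of these 6 libraries. In poly(A) embryos mcm-7 was again highest but mcm-2 was lowest, and the ratio was 8.09, 8.21 and 2.70 in replicates 1, 2 and 3. With mcm-2 left out, the ratio of the remaining 5 genes in these libraries was 2.45, 2.43 and 2.39. In RiboMinus embryos the 6 genes spanned 3.04, 3.18 and 2.64 times. The sperm libraries were the most even, at 1.45 to 1.83 times.

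Relative to the geometric mean of the other 5 MCM genes in the same library, mcm-2 stood at −2.29, −2.32 and −0.65 on the log2 scale in poly(A) embryos. It stood at 0.46, 0.44 and 0.27 in RiboMinus embryos, at 0.59 to 0.63 in maternal-strain worms and at 0.61 to 0.64 in CB4856 worms. All 3 poly(A) embryo libraries were therefore below every embryo and worm library of the other groups. With each gene scaled to the mean of the other 5, an analysis added after the values had been seen, mcm-2 was lower in poly(A) embryos than in maternal-strain worms by a log2 difference of −2.06 (standard error 0.47, limma adjusted p = 0.00423). On that scale it was also lower than in RiboMinus embryos, by −1.82 (adjusted p = 0.013). The other 5 MCM genes, so scaled, were not called in any of the 3 comparisons. The relative level of mcm-5 was −1.41 to −1.37 in CB4856 worms, −1.19 to −1.14 in maternal-strain worms and −0.44 to −0.21 in poly(A) embryos; its scaled log2 difference between the last pair was 0.82 (adjusted p = 0.0593).

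**Figure D3:**
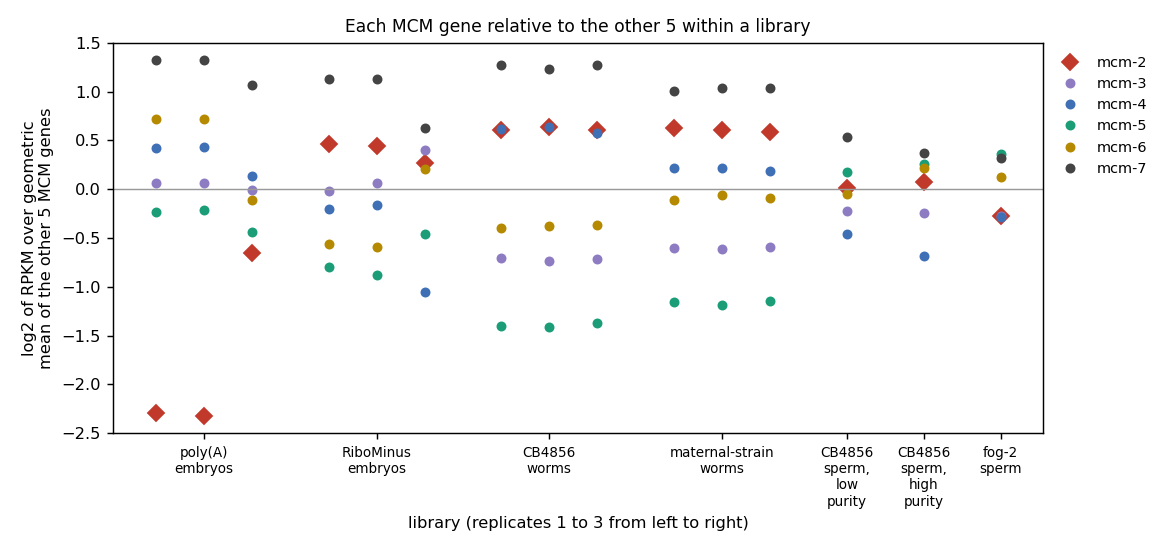
Log2 of each MCM gene's RPKM over the geometric mean of the other 5 MCM genes, in each of the 15 mRNA libraries grouped on the horizontal axis. The mcm-2 diamonds lie at −2.29, −2.32 and −0.65 in poly(A) embryos and between 0.27 and 0.64 in RiboMinus embryos and worms.

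The third comparison set poly(A) selection against RiboMinus depletion in embryos from the same cross. The helicase genes mcm-2 and mcm-3 and the loader cdt-1 were lower in poly(A) embryos, and the other 5 genes were not called. For mcm-2 the poly(A) libraries had 33.9, 33.5 and 160.5 RPKM against 503, 507 and 379.5 RPKM with RiboMinus, with no overlap. The log2 difference was −2.55 (standard error 0.67, limma adjusted p = 0.0359). For mcm-3 the values were 132, 132 and 234 RPKM against 382, 407 and 407 RPKM, again without overlap (log2 difference −1.18, adjusted p = 0.0257). For cdt-1 they were 9.43, 9.82 and 24.7 RPKM against 47.6, 47.9 and 67.2 RPKM, without overlap and with a log2 difference of −1.80 (adjusted p = 0.0258). How many of all genes lacked overlap between the embryo groups was not counted. The lack of overlap in these genes and those below thus cannot be read as particular to them.

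The remaining helicase genes had lower means in poly(A) embryos but did not pass. The log2 difference was −0.77 for mcm-5 (adjusted p = 0.0628), −0.63 for mcm-6 (adjusted p = 0.0514) and −0.77 for mcm-7 (adjusted p = 0.111). The libraries of mcm-5 did not overlap, at 112, 113 and 182 RPKM with poly(A) selection and 244, 237 and 248 RPKM with RiboMinus. Those of mcm-6 did not overlap either, at 194, 194 and 219.7 RPKM against 279.5, 280.5 and 365.5 RPKM. For mcm-4 the RiboMinus libraries were themselves far apart, at 344.5, 358 and 177 RPKM. The poly(A) libraries had 162, 164 and 254 RPKM (log2 difference −0.29, −1.18 to 0.61). Of these, 254 RPKM lay within the RiboMinus range and the other values lay below it. The RiboMinus libraries of mcm-7 had 741, 756 and 467 RPKM, above the 274, 275 and 434 RPKM of the poly(A) libraries.

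Only cdc-6 had a positive difference, 0.47 (−0.66 to 1.59, adjusted p = 0.51). Its poly(A) libraries had 30.5, 30.4 and 64.1 RPKM and its RiboMinus libraries 20.5, 22.5 and 46.6 RPKM, which overlap. The RiboMinus values of this gene rest on 165, 180 and 1136 reads, and 165 was the lowest read number of any licensing gene in the 12 replicated libraries.

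Over all genes tested 20.6% were called, 8.6% as lower and 12% as higher in poly(A) embryos (58.3% of the called genes were higher, and 47.9% after quantile normalization), and 3 of 8 licensing genes were called lower and 0 higher. Their median log2 difference was −0.77 against 0.06 over all genes. The count of calls depended on the libraries and on scaling. It was 5 without replicate 3 of the poly(A) embryos, where mcm-5 and mcm-7 joined. It was 1, namely mcm-7, without RiboMinus replicate 3, 0 without RiboMinus replicates 1 and 2, and 6 after quantile normalization, where mcm-5, mcm-6 and mcm-7 joined. A fit of these 2 groups alone called 0 genes of any kind, with the same log2 differences. The reported fit took its spread from all 4 groups. Its 3 calls thus rest in part on the worm samples, whose replicates differed less than those of embryos.

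The levels in RiboMinus embryos can be set beside those of maternal-strain worms only as values, since the libraries were made in different ways. The ratio of the means was 6.52 for cdt-1, 3.82 for cdc-6, 2.83 for mcm-3 and 2.39 for mcm-5. It was 1.56 to 1.70 for mcm-2, mcm-6 and mcm-7, and 1.18 for mcm-4. With poly(A) embryos in the numerator the ratios were 1.95 for cdt-1, 5.30 for cdc-6 and 0.343 for mcm-2. The embryo's relative order of cdc-6 and cdt-1 thus differed with the extraction, with cdt-1 below cdc-6 in each poly(A) library and above it in each RiboMinus library.

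Many genes that act directly before and after licensing were higher in poly(A) embryos than in maternal-strain worms. Of 8 oocyte and early embryo markers 4 were also called higher and 0 lower, with a median log2 difference of 0.72, and their part in what follows was not tested. Of 9 genes for origin recognition and the control of licensing, 6 rose and 0 fell, beside the 1 and 1 of 8 licensing genes and the 30.9% and 24.4% over all genes. These 6 were all 5 measured subunits of the origin recognition complex, orc-1 to orc-5, and gmn-1, which encodes geminin. The first subunit, orc-1, had 182, 180.4 and 171 RPKM in poly(A) embryos against 38.4, 37.4 and 38.2 RPKM in maternal-strain worms (log2 difference 2.18, limma adjusted p = 5.61e-05). Levels of gmn-1 were 181, 181 and 406 RPKM against 69.4, 74.3 and 73.2 RPKM (1.89, adjusted p = 0.00732). The genes of the ubiquitin ligase that degrades CDT-1 were not called, with log2 differences of −0.17 for its substrate receptor cdt-2, 0.46 for cul-4 and −0.52 for the adaptor ddb-1.

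Of 9 measured origin firing genes, 6 rose and 0 fell. They were the GINS subunits psf-1, psf-2, psf-3 and sld-5, the kinase gene cdc-7, whose product phosphorylates loaded MCM rings, and the firing factor sld-2. The largest rise was that of psf-1, at 1057, 1058 and 463 RPKM in poly(A) embryos against 78.0, 78.4 and 77.5 RPKM in maternal-strain worms (log2 difference 3.15, limma adjusted p = 0.000482). The kinase gene cdc-7 had 33.2, 31.5 and 34.2 RPKM against 9.62, 10.9 and 11.5 RPKM (1.53, adjusted p = 0.000884). The smallest difference in this list was 0.21 for ctf-4 (adjusted p = 0.418). The genes dbf-4, cdc-45, sld-3 and pold-1 were not analysed here.

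Of 18 measured genes for DNA synthesis at the fork, 10 rose and 0 fell. They comprised the primase genes pri-1 and pri-2, the sliding clamp gene pcn-1, the clamp loader genes rfc-1 to rfc-4, rpa-2 of the single-strand binding protein, the flap nuclease gene crn-1 and rnr-2 of ribonucleotide reductase. The log2 differences ran from 2.57 for rfc-1 (limma adjusted p = 0.000168) down to −0.56 for the polymerase gene pole-1 (adjusted p = 0.277). Of 8 genes that take the helicase off chromatin, 5 rose (lrr-1, cdc-48.2, ufd-1, npl-4.1 and npl-4.2) and 2 fell. The genes that fell were ubxn-3, a cofactor of the CDC-48 unfoldase, at −2.33 (adjusted p = 0.00971), and the ubiquitin ligase scaffold cul-2, at −1.43 (adjusted p = 0.0498). The 3 genes efl-1, dpl-1 and lin-35, of the E2F and Rb regulators of S phase genes, had log2 differences of 0.12 to 0.96, and 0 were called; efl-1 passed on its limma adjusted p of 0.0164 but not on size. The list medians were 1.76 for origin recognition and control, 1.53 for firing, 1.31 for fork synthesis, 1.31 for unloading and 0.36 for E2F and Rb. Whether the lists differ from one another was not tested.

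**Figure D4:**
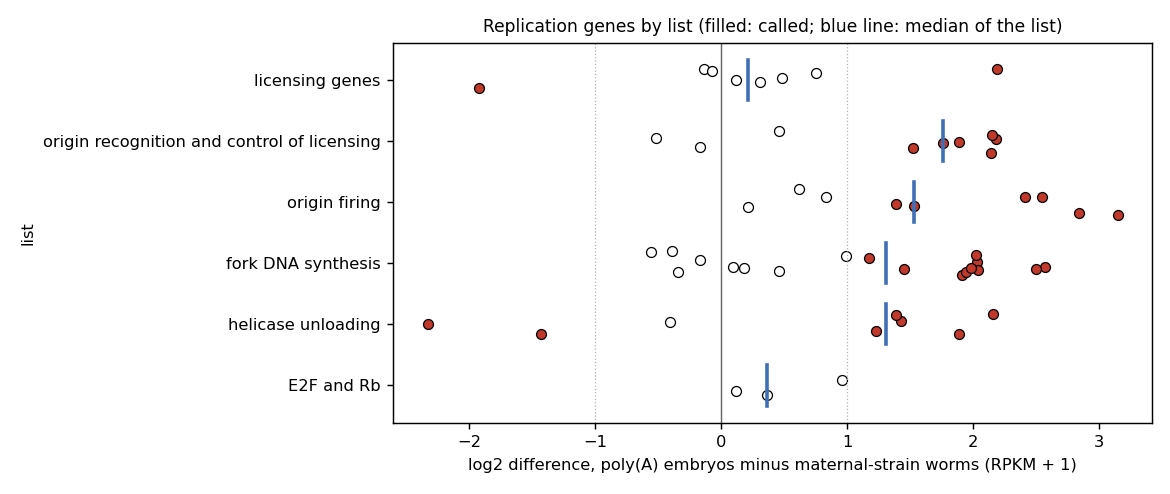
Log2 differences between poly(A) embryos and maternal-strain worms on the log2(RPKM + 1) scale, for the 8 licensing genes and for 5 other lists of replication genes; filled points were called, blue lines are medians and dotted lines mark a 2-fold difference. The median is 0.21 for the licensing genes and 1.31 to 1.76 for origin recognition, firing, fork and unloading genes.

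The unloading gene ubxn-3 had 19.7, 20.4 and 66.4 RPKM in poly(A) embryos, 184, 184 and 110.6 RPKM in RiboMinus embryos and 186 to 189.9 RPKM in maternal-strain worms. It was lower in poly(A) than in RiboMinus embryos by −1.93 (limma adjusted p = 0.045). The other replication genes called lower in poly(A) than in RiboMinus embryos were ddb-1 at −2.39, rpa-1 at −1.59, tim-1 at −1.41 and lin-35 at −1.03. Over the other 5 lists, 9 of 47 genes tested were called higher there and 5 lower, beside the 12% and 8.6% of all genes. Those called higher were psf-1 at 1.93, psf-2 at 1.16, psf-3 at 1.45, pri-1 at 2.04, rfc-3 at 1.29, rpa-2 at 1.59, crn-1 at 1.99, ufd-1 at 1.13 and npl-4.2 at 1.29. Subunits of one complex therefore lay on both sides, as rpa-1 and rpa-2 of the single-strand binding protein did. Between the worm strains only npl-4.1 was called of these lists, at a log2 difference of −3.14 (adjusted p = 0.00694). Its mean was 12.3 RPKM in the maternal strain and 0.517 RPKM in CB4856. As npl-4.1 and npl-4.2 are near-identical copies, the split of reads between them is uncertain. The mean of npl-4.2 was not higher in CB4856 worms, at 4.82 RPKM against 6.57 RPKM in the maternal strain.

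In each sperm library the 6 MCM genes had lower levels than in CB4856 worms, while cdc-6 had higher ones. Each sperm type was 1 library, so no test was made. In the order low-purity CB4856, high-purity CB4856 and fog-2(q71) sperm, mcm-2 had 46.3, 24.9 and 28.9 RPKM, mcm-5 had 50.9, 27.8 and 41.5 RPKM and mcm-7 had 62.7, 29.7 and 40.6 RPKM. CB4856 worms exceeded high-purity and low-purity sperm of the same strain by 15.4 and 7.12 times for mcm-4, 12.3 and 5.82 times for mcm-7, 10.2 and 5.46 times for mcm-2 and 2.85 and 1.55 times for mcm-5. For cdc-6 the sperm libraries had 24.4, 12.8 and 19.0 RPKM, and the ratio of worms to sperm was 0.581 at high and 0.304 at low purity. For cdt-1 they had 8.04, 4.29 and 7.33 RPKM, with a ratio of 1.77 at high and 0.945 at low purity.

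All 8 genes were higher in the low-purity than in the high-purity CB4856 sperm library, by 1.65 times for mcm-6 to 2.17 times for mcm-4, with a median of 1.89. The share of all genes higher at low purity was not counted, so the 8 of 8 cannot be read as particular to these genes. Values in fog-2 sperm were 1.16 to 1.77 times those of high-purity sperm. The same low-to-high ratio had a median of 0.369 over 9 sperm markers, 1.25 over 8 oocyte and early embryo markers, 1.57 over 8 markers of the mitotic and meiotic germline and 1.66 over 8 somatic markers. Somatic markers summed to 4703 RPKM in the low-purity, 2396 RPKM in the high-purity and 2093 RPKM in the fog-2 sperm library, and 0 of 8 were at 0. The part of other cells in the licensing genes' levels was not tested.

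The profiles of the 8 genes over the libraries were alike to different degrees. Across 15 mRNA libraries, Pearson's r of log2(RPKM + 1) between a gene and the mean of the other 7 was 1.0 for mcm-3, 0.97 for mcm-5, 0.95 for mcm-6, 0.93 for mcm-7 and 0.85 for mcm-4. It was 0.77 for cdt-1, 0.72 for mcm-2 and 0.15 for cdc-6. Without the 3 sperm libraries, r was 0.96 for cdt-1, 0.44 for mcm-4, 0.37 for cdc-6 and 0.34 for mcm-2. Of all other genes tested, those whose profile was most like the mean of the 8 were hrd-1 (r = 0.993), mek-1 (0.992), meg-2 (0.99), ekl-5 (0.99) and swan-1 (0.988). Of these, hrd-1 had a mean of 243 RPKM in RiboMinus embryos, 141 RPKM in poly(A) embryos, 143.2 RPKM in the worms of CB4856 and 148 RPKM in those of the maternal strain. The libraries of a group share their source, so these values of r describe 7 kinds of sample and carry no p.

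Small RNAs antisense to exons of the licensing genes were found in all 6 small RNA libraries. In C. elegans most such RNAs are 22G RNAs, made on mRNA templates by RNA-dependent polymerases and bound by Argonautes such as CSR-1, and the polyphosphatase step of these libraries admits their 5′ triphosphate ends. Depth over all classes was 9.55 M reads in sperm, 8.10 M in oocytes, 5.38 M in hybrid embryos, 15.3 M in TX189 embryos, 2.23 M in CB4856 worms and 2.50 M in maternal-strain worms. With 1 library each, no test was made, and intervals are exact Poisson 95% intervals that cover counting error only. Levels are RPM, reads per M reads of all classes. The summed antisense level of the 8 genes was 1028 RPM in oocytes (1010.0 to 1050.0), 1016 RPM in TX189 embryos, 659.6 RPM in hybrid embryos (638 to 682), 585 RPM in maternal-strain worms, 407 RPM in sperm and 297 RPM in CB4856 worms. Per M antisense reads on exons the order changed, with 2172 in maternal-strain worms, 1188 to 1303 in oocytes, both kinds of embryo and CB4856 worms, and 540.3 in sperm.

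The gene with the most antisense reads was mcm-2 in germ cells and hybrid embryos, and mcm-7 in TX189 embryos and worms. For mcm-2 the library levels were 629 RPM in oocytes (611 to 646), 275 RPM in TX189 embryos, 257.5 RPM in hybrid embryos (244 to 271), 228 RPM in sperm (219 to 238), 82.9 RPM in maternal-strain worms and 60.0 RPM in CB4856 worms. This gene held 61.2% of the 8 genes' antisense reads in oocytes and 56.1% in sperm, but 39.0% in hybrid embryos, 27.1% in TX189 embryos and 14.2% in maternal-strain worms. For mcm-7 the levels were 329.5 RPM in TX189 embryos (320 to 339), 229 RPM in maternal-strain worms, 97.0 RPM in CB4856 worms, 94.1 RPM in hybrid embryos, 84.8 RPM in oocytes and 62.5 RPM in sperm. Per kilobase, mcm-2 in oocytes lay above 96.6% of 16860 genes with a known length and mcm-7 in maternal-strain worms above 98.5%. These were the highest ranks of each gene. The lowest were 90.3% for mcm-2, in CB4856 worms, and 87.0% for mcm-7, in oocytes.

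The hybrid and TX189 embryo libraries lay furthest apart, as ratios, in mcm-7 and mcm-5. The antisense level of mcm-7 was 94.1 RPM (86.1 to 103) in hybrid and 329.5 RPM in TX189 embryos, and that of mcm-5 was 38.5 and 92.7 RPM. For cdc-6 the levels were 47.4 RPM (41.8 to 53.6) and 84.7 RPM (80.2 to 89.4). For mcm-2, mcm-3, mcm-4, mcm-6 and cdt-1 the levels of the 2 libraries lay closer, at 257.5 and 275 RPM, 57.9 and 72.6 RPM, 63.1 and 73.9 RPM, 66.9 and 58.5 RPM, and 34.2 and 28.5 RPM. In oocytes mcm-5 had the lowest antisense level of the 8 genes, 24.6 RPM, whereas in sperm the lowest was that of cdt-1, at 4.19 RPM (40 reads) against 32.7 RPM in oocytes. The levels of cdc-6 were 32.6 RPM in sperm and 48.9 RPM in oocytes.

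Sense reads on the same exons were fewer in every library. Summed over the 8 genes, antisense exceeded sense reads 46.8 times in oocytes and 32.5 times in sperm, and 5.19 to 6.69 times in embryos and worms. Over all exons, antisense and sense reads were 6.648 and 0.212 M in oocytes and 7.187 and 0.345 M in sperm. They were 2.985 and 0.346 M in hybrid embryos and 12.478 and 0.749 M in TX189 embryos. In CB4856 worms they were 0.509 and 0.176 M, and in maternal-strain worms 0.672 and 0.159 M. The antisense excess was thus not particular to these genes. The sense sums were 21.97 RPM in oocytes, 12.5 RPM in sperm, 118.7 RPM in hybrid embryos and 195.6 RPM in TX189 embryos. The share of antisense reads ran from 60.4% for mcm-5 in CB4856 worms, with 29 antisense and 19 sense reads, to 99.5% for mcm-2 in oocytes.

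**Figure D5:**
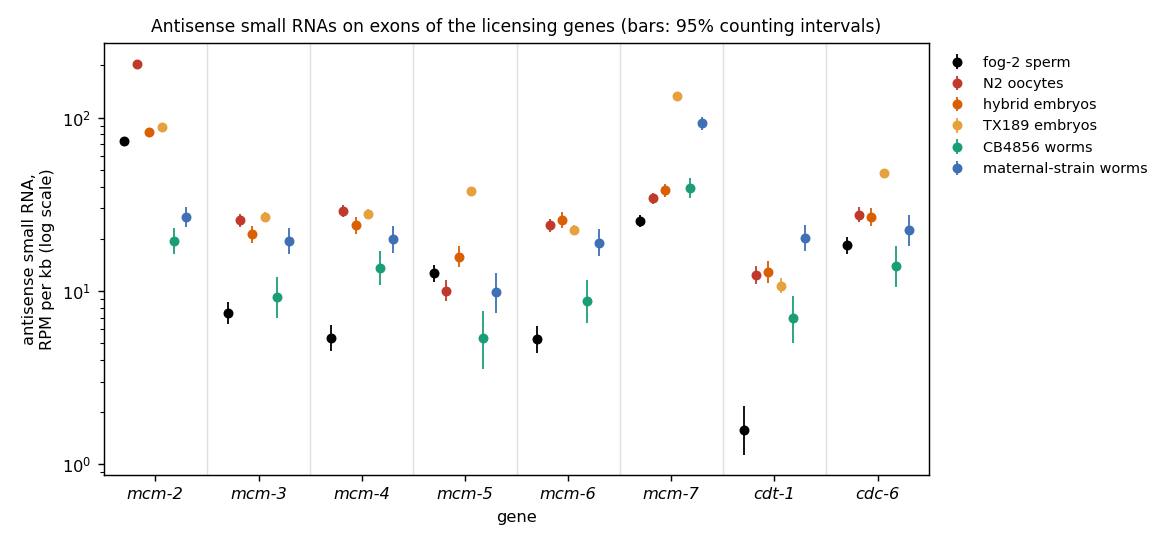
Antisense small RNA reads on exons of each licensing gene, per M reads of all classes and per kilobase (log axis), in the 6 small RNA libraries; bars are 95% Poisson intervals. The oocyte point of mcm-2 is the highest at 203 and the sperm point of cdt-1 the lowest at 1.58.

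In the RefSeq annotation of WBcel235, the spans of mcm-2, mcm-3, mcm-4, mcm-6 and mcm-7 each overlap that of a neighbouring gene (Y17G7B.23, C25D7.16, ekl-7, srxa-10 and F32D1.3 in that order), while those of mcm-5, cdt-1 and cdc-6 overlap none. The mRNA protocol keeps no strand, so mRNA reads from overlapping stretches cannot be told apart. Small RNA reads of mcm-3, mcm-6 and mcm-7 were fractional in places, such as 5048.5 antisense reads of mcm-7 in TX189 embryos. How such reads were shared between features is not known, and the Poisson intervals do not cover it.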

How the data were processed

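The authors aligned reads with BWA, per the submitters' processing notes; version, genome build and annotation are not given in the sources used here. The mRNA values are RPKM as deposited by the authors. The deposited small RNA class tables hold a signal taken as reads times 1 constant per library, since 85.1% to 87.7% of the values are then whole reads. It was divided by that constant and expressed per M reads summed over these tables (RPM). In each of them 8 columns matched no sample and were not used; the oocyte and worm columns carry no replicate number and were taken as the libraries labelled 1.

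Whole reads were recovered from RPKM steps for 16871 of 16872 features with values in at least 4 of 12 libraries, and tested on simulated data. Replicates 1 and 2 were averaged, and all 4 groups were fitted together with limma 3.58.1 in R 4.3.3, using its trend option, on log2(RPKM + 1), also tested on simulated data. Alternatives changed the pseudocount, filter, normalization, averaging, samples fitted and replicate block, and left out libraries in turn.

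The genes, lists and comparisons were chosen with earlier results of these data known. Named were all 8 licensing genes, each other replication gene called, and the 5 genes most like the mean licensing profile. Genes at the ends of their list's differences were named for poly(A) embryos against maternal-strain worms only.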

Additional observations from a re-analysis of the deposited data

How the results depend on the processing

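Between worm strains 0 licensing genes were called under every alternative run. Between poly(A) embryos and maternal-strain worms, cdc-6 was called higher under every alternative (log2 difference at least 1.66, adjusted p at most 0.0385). The count called higher was 1 to 2 with libraries left out in turn, the second being cdt-1. The count called lower, 1 (mcm-2) in the reported fit, was 0 with no filter on low values, 0 in a fit of 2 groups only and 0 to 1 with libraries left out. Between poly(A) and RiboMinus embryos the count called lower, 3 as reported, was 6 after quantile normalization, 0 in a fit of 2 groups only (which called 0 genes in all, against 1737 and 5658 in the same kind of fit of the other comparisons) and 0 to 5 with libraries left out; the cause was not tested. With 1 library left in an arm, that library was assumed to vary like the other groups. Scaled to the mean of the other 5 MCM genes, mcm-3 was no longer called there (−0.18, adjusted p = 0.634). Median centring moved the median of all genes from 0.03, 0.05 and 0.06 to −0.18, 0.15 and 0.21 in the 3 comparisons. Of all genes, 1642 were called between worms as reported, 671 with a pseudocount of 5 RPKM and 831 with a minimum of 5 RPKM; 2278 were called between embryo libraries as reported.

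The labels do not say that equal replicate numbers mark a shared origin, and deviations from group means correlated at 0.73, 0.09 and 0.24 over the 3 comparisons. With the replicate block the counts of licensing genes were unchanged: 0 and 0 between worms, 1 higher and 1 lower between poly(A) embryos and worms, and 0 higher and 3 lower between embryo libraries (mcm-2 at adjusted p = 0.0431).

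Summed antisense small RNA ratios moved with the denominator and the strand. Hybrid embryos over oocytes gave 0.642 per M reads of all classes, 0.949 per M antisense exon reads and 5.40 for sense reads. Sperm over oocytes gave 0.396, 0.432 and 0.57. TX189 over hybrid embryos gave 1.54, 1.05 and 1.65, and CB4856 over maternal-strain worms gave 0.508, 0.60 and 0.647. RiboMinus depth limits cdc-6 and cdt-1 most, and sperm depth is unknown.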
